A study of Mus musculus with 6 samples.

Results

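The genes described here encode the machinery that attaches sugar chains to asparagine residues of proteins (N-glycans), trims and extends them, caps them with sialic acid and removes that cap again. They were chosen by gene symbol from a list of 41 names, and each name matched 1 of the 55401 genes in the deposited table. Of these, 36 had a mean FPKM (reads per kilobase of exonic gene size and per unit of library depth) of at least 1 over the 6 livers and were among the 10167 genes tested. The other 5 genes lay below that level and are given by their values.

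RNA-Seq was performed on livers of 3 WT and 3 *Asgr1*-/- mice, male, on a C57/BL6 background, 13 weeks old and fasted overnight. The knockout mice were made by CRISPR/Cas9 editing of zygotes, and both genotypes were littermates from matings of *Asgr1*+/- parents. There was 1 library per mouse, so p values set the difference between genotypes against the spread between mice. Whether the sequenced mice came from 1 knockout line is not given in the sources used here, and the labels name no batch.

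N-glycans are transferred as a preassembled chain to proteins entering the endoplasmic reticulum (ER), where removal and re-addition of glucose lets the lectin chaperones calnexin and calreticulin hold proteins until they fold. Golgi enzymes then trim mannose, add branches, and extend each branch with galactose and a terminal sialic acid. Most plasma proteins made by hepatocytes carry such chains, and *Asgr1* encodes the major subunit of the hepatocyte asialoglycoprotein receptor, which binds the galactose exposed on proteins that have lost their sialic acid.

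*Asgr1* had 15894, 15463 and 11716 counts in WT livers 1 to 3 and 62, 40 and 36 counts in *Asgr1*-/- livers 1 to 3 (log2 fold change -8.36, standard error [SE] 0.23, edgeR adjusted p = 2.26e-07), which matches the genotype labels. Total counts were 20134006 to 21178121 per WT library and 19842637 to 22080809 per *Asgr1*-/- library. Hepatocyte markers were abundant in every liver, with *Alb* at 1002750 counts or more. Transcripts of 14 Kupffer cell and macrophage markers summed to 98.7, 276 and 910 CPM (counts divided by the TMM-scaled library size, as for the CPM values of all genes here) in WT livers 1 to 3 and to 355, 280 and 222 CPM in *Asgr1*-/- livers 1 to 3. WT liver 1 was thus the lowest and WT liver 3 the highest of the 6 livers for these cells. Of these markers, 14 of 14 were tested and 0 passed between genotypes. Their log2 fold changes were above 0 for 0 of 14, with a median of -0.64. Among markers of the other cell types, *Ighm* was lower in *Asgr1*-/- livers (log2 fold change -2.24, edgeR adjusted p = 0.0215). Of the 9 lymphocyte markers it was the 1 tested. Those below the level for testing went both ways. The WT and *Asgr1*-/- means were 0.405 and 0.527 CPM for *Cd3g* and 0.759 and 0.277 CPM for *Cd79b*. Of the cholangiocyte markers, *Epcam* (log2 fold change 1.30, edgeR adjusted p = 0.277) and *Krt19* (1.20, edgeR adjusted p = 0.281) were higher in each *Asgr1*-/- liver than in any WT liver without passing, 3 of 3 tested markers were above 0, and *Cftr* had no more than 7 counts in any liver. The 7 markers of this list summed to 39.6 to 52.4 CPM in WT and 51.8 to 65.0 CPM in *Asgr1*-/- livers. In whole liver, fewer cells of a type and less RNA per cell cannot be told apart.

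The fitted differences between genotypes in transcripts of N-glycan synthesis, sialylation and desialylation were below 1.5-fold for 35 of the 36 tested genes. Of all 10167 genes tested, 9464 were below 1.5-fold. With edgeR's quasi-likelihood test, 0 of the 36 tested genes were called (adjusted p below 0.05 together with a fold change over 1.5), beside 0.295% of all genes tested. At an unadjusted p under 0.05 there were 6 of 36 (16.7%), beside 15.5% of all genes. Of those 6, *Rpn1*, *Ddost*, *Mogs*, *Calr* and *Cmas* were higher in *Asgr1*-/- livers, a share of 13.9% beside 7.29% of all genes, and *Neu1* was lower, a share of 2.78% beside 8.2% of all genes. DESeq2 on the same counts called 1 of the 36, *Mogs*, beside 2.44% of all genes. A fold change above 0 was found for 19 of 36 genes (52.8%), beside 46.7% of all genes, and the median log2 fold change was 0.03 beside -0.02 for all genes tested.

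The estimates were precise enough to bound the changes. The median standard error of the log2 fold change was 0.13 for the 36 genes and 0.15 for all genes. The median size of the log2 fold change, whatever its sign, was 0.20 for the 36 genes and 0.17 for all genes. The 95% interval lay within 2-fold in either direction for 36 of 36 genes and within 1.5-fold for 25 of 36. Of all 10167 genes tested, it lay within 2-fold for 8804 and within 1.5-fold for 5783. The fitted fold change itself was within 1.5-fold for 35 genes, with *Mogs* the exception. For the median gene of the group, the highest WT liver exceeded the lowest 1.25-fold and the highest *Asgr1*-/- liver exceeded the lowest 1.13-fold.

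**Figure D1:**
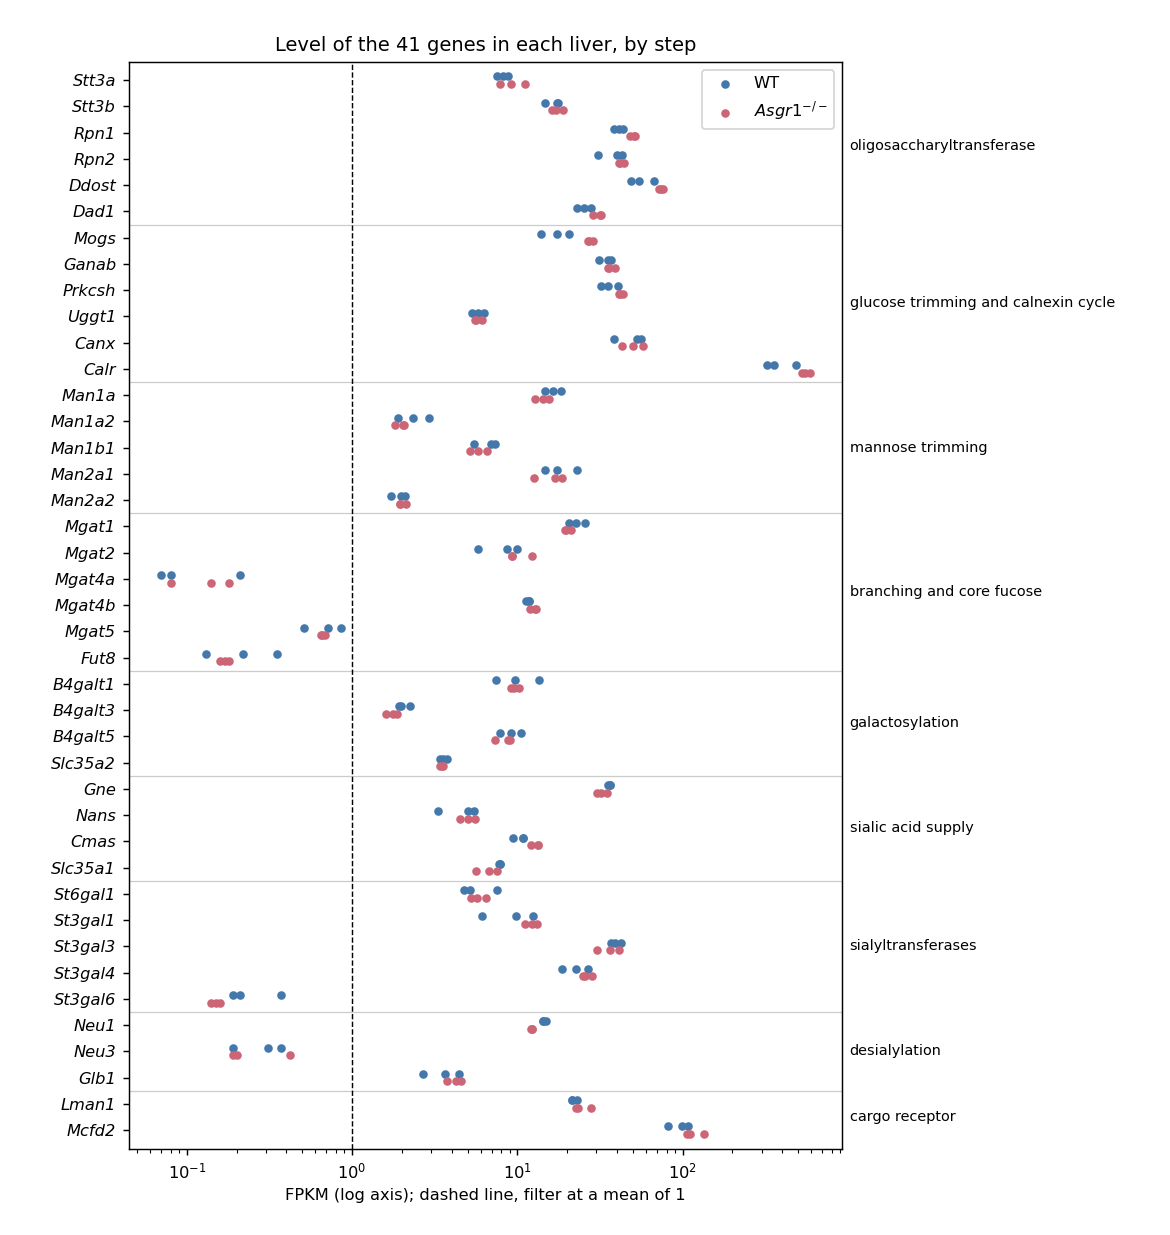
FPKM of the 41 genes (log axis) in each of 3 WT livers (blue points) and 3 *Asgr1*-/- livers (red points), grouped by step, with a dashed line at the filter of a mean FPKM of 1. *Calr* has the highest level, at a mean of 473 FPKM, and *Mgat4a* the lowest, at 0.127.

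The steps in the ER had mostly positive fold changes and the later steps mostly negative ones. Of the 12 ER genes of glycan transfer, glucose trimming and chaperone binding, 10 had a log2 fold change above 0 and the median was 0.16. Of the 20 tested genes of the later steps, which are mannose trimming, branching, galactosylation, sialic acid supply and sialyl transfer, 6 had one above 0 and the median was -0.16. This grouping follows the order of the pathway, was made after the values were seen, and the difference between its parts was not tested. Groups without overlap between the 3 WT and 3 *Asgr1*-/- livers were found for 5 of 36 genes higher in *Asgr1*-/- livers (13.9%) and 5 of 36 lower (13.9%), beside 10.9% and 10.9% of all genes. The higher ones were *Rpn1*, *Ddost*, *Mogs*, *Calr* and *Cmas*, of which 4 belong to the ER steps, and the lower ones were *Mgat1*, *B4galt3*, *Gne*, *Slc35a1* and *Neu1*, of which 4 belong to the later steps.

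**Figure D2:**
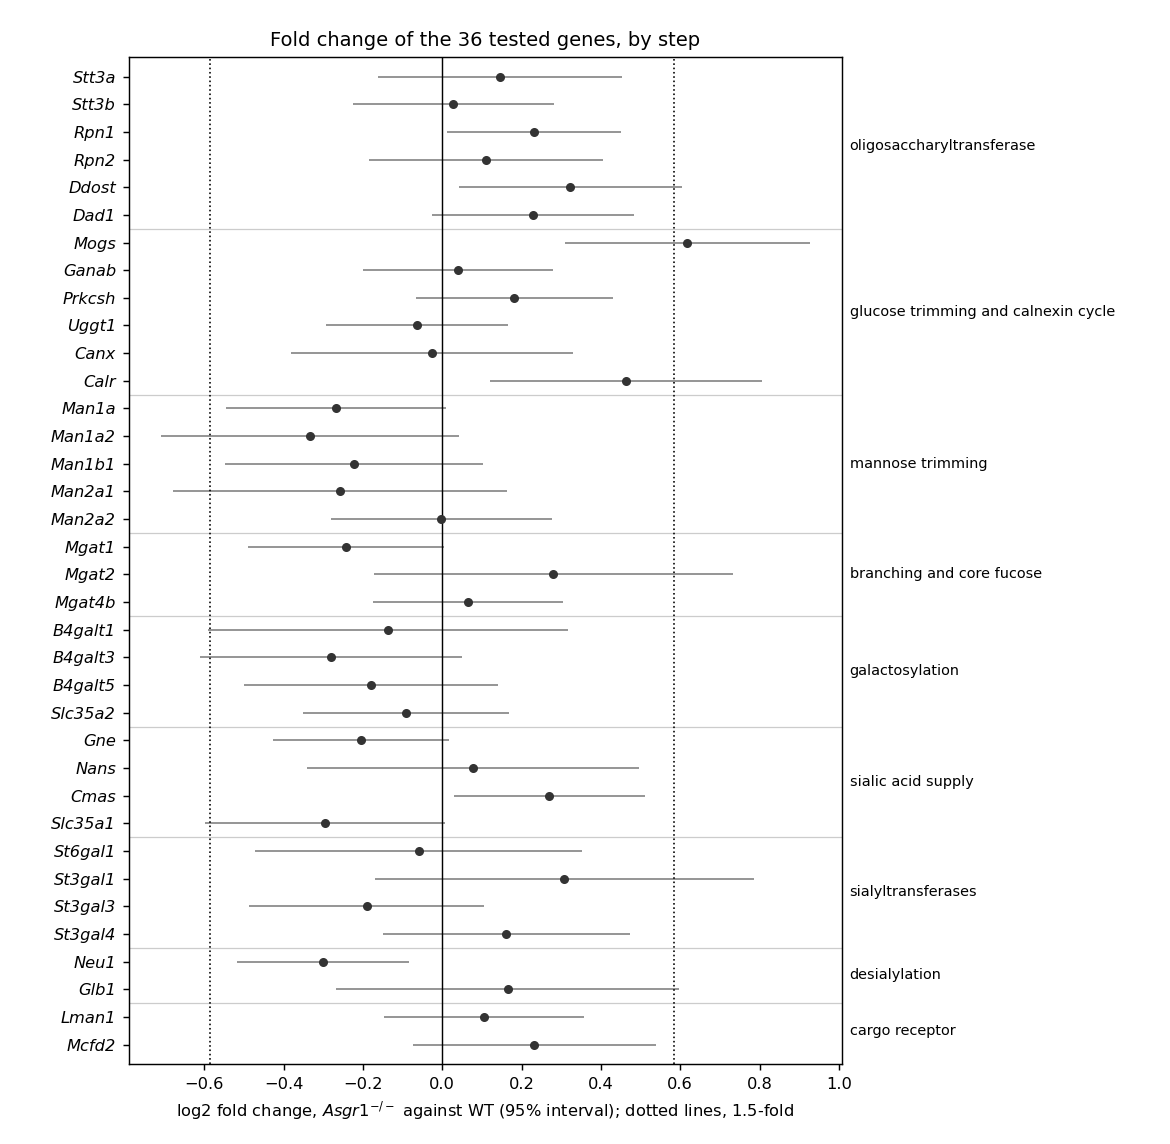
Log2 fold change, *Asgr1*-/- against WT, of the 36 tested genes with its 95% interval (lines), from edgeR's fit on counts of 3 livers per genotype, with dotted lines at a fold change of 1.5. The ER genes at the top lie mostly right of 0 and *Mogs*, at 0.62, is the one point beyond the dotted line.

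The oligosaccharyltransferase moves the finished chain from its lipid carrier to the protein. Its 6 genes had log2 fold changes from 0.03 to 0.32 with a median of 0.19, and 6 of 6 were above 0. *Ddost*, a noncatalytic subunit, had the highest level of the complex (mean 65.3 FPKM). It measured 119, 108 and 145 CPM in WT livers 1 to 3 and 157, 156 and 152 CPM in *Asgr1*-/- livers 1 to 3. The 3 *Asgr1*-/- livers lay close together and above WT liver 3, the highest WT liver. The difference was 0.32 on the log2 scale (SE 0.13, 95% interval 0.04 to 0.60, edgeR adjusted p = 0.264), which did not pass.

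*Rpn1*, which encodes ribophorin I, a subunit that brings substrates to the catalytic site, measured 192, 181 and 200 CPM in WT livers 1 to 3 and 227, 227 and 218 CPM in *Asgr1*-/- livers 1 to 3. The genotypes did not overlap, and the WT mean was 191 ± 9.65 CPM (SD, n = 3) and the *Asgr1*-/- mean 224 ± 5.11 CPM (SD, n = 3). The log2 fold change was 0.23 (SE 0.10, edgeR adjusted p = 0.297). Its partner *Rpn2*, ribophorin II, overlapped between genotypes with a log2 fold change of 0.11, and WT liver 1 was its lowest liver at 140 CPM against 182 CPM or more in the 5 others.

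The alternative catalytic subunits showed small differences between genotypes. *Stt3b*, whose complex reaches sites missed during translation, had a mean of 17.0 FPKM and *Stt3a*, whose complex works on the chain as it enters the ER, 8.76 FPKM. In CPM, which does not divide by length, their WT means were 71.8 and 75.1, so the FPKM order rests on annotated exonic sizes of 4221 and 8948 bases. Between genotypes the log2 fold changes were 0.03 and 0.14, and both genes overlapped. *Dad1*, a small subunit of the same complex, had a log2 fold change of 0.23 (edgeR adjusted p = 0.368), also with overlap.

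Glucose trimming begins with glucosidase I, encoded by *Mogs* at chr6:83115496-83118898 (GRCm38), which removes the outermost glucose of the transferred chain. The genes of glucose trimming and the calnexin cycle had a median log2 fold change of 0.11, with 4 of 6 above 0, and *Mogs* showed the largest difference and the smallest p of the 36 genes. It measured 41.5, 52.5 and 59.9 CPM in WT livers 1 to 3 and 80.7, 77.2 and 78.4 CPM in *Asgr1*-/- livers 1 to 3. Each *Asgr1*-/- liver was above each WT liver, and the WT livers spread more widely. The order of the WT livers was that of their Kupffer cell marker sums. It was also that of their endothelial (276, 361 and 596 CPM) and stellate cell and fibroblast marker sums (127, 164 and 235 CPM). In each of these lists every *Asgr1*-/- liver summed to less than WT liver 3. The cholangiocyte markers *Epcam* and *Krt19* had the same WT order and were higher in each *Asgr1*-/- liver than in any WT liver. The other markers of that list did not show both. Of the 41 genes, *Rpn2*, *Uggt1*, *Canx*, *Mgat1*, *Mgat5*, *Fut8*, *St3gal1*, *St3gal6*, *Neu1* and *Mcfd2* also had this WT order. The part of any of these cells in *Mogs* or those genes was not tested. The WT mean of *Mogs* was 51.3 ± 9.24 CPM (SD, n = 3) and its *Asgr1*-/- mean 78.8 ± 1.80 CPM (SD, n = 3), 53.5% higher with a 95% interval of 23.9% to 90.2%.

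The log2 fold change of *Mogs* was 0.62 (SE 0.14, edgeR adjusted p = 0.0900), short of the threshold, and an exact permutation test (two-sided) reached p = 0.1, which is the smallest value possible with 3 mice against 3. Over 14 other ways of fitting or scaling, its log2 fold change lay between 0.49 and 0.74 and its adjusted p between 0.00164 and 0.30. It passed in 3 of them. These were DESeq2 (adjusted p = 0.00449), edgeR with no filter on low values (adjusted p = 0.00164) and edgeR without WT liver 3 (log2 fold change 0.74, adjusted p = 0.0219). Calls over all genes were also more numerous, at 248 with DESeq2 and 465 with no filter, against 30 with the filtered edgeR fit.

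Glucosidase II, which removes the remaining glucoses, is made of a catalytic subunit encoded by *Ganab* and a regulatory subunit encoded by *Prkcsh*. Their log2 fold changes were 0.04 (95% interval -0.20 to 0.28) and 0.18 (95% interval -0.07 to 0.43), and the genotypes overlapped for both. Set against *Ganab* in the same liver, the FPKM of *Mogs* was 0.443, 0.476 and 0.580 in WT livers 1 to 3 and 0.790, 0.691 and 0.767 in *Asgr1*-/- livers 1 to 3. This ratio was chosen after the values were seen and is given as a description. *Uggt1*, the folding sensor that puts glucose back onto misfolded proteins, had a log2 fold change of -0.06 with overlap.

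Calreticulin and calnexin hold the monoglucosylated protein, the former in the ER lumen and the latter in its membrane. *Calr* at chr8:84841850-84846934 had the highest level of the 41 genes, a mean of 473 FPKM, and *Canx* at chr11:50293961-50325673 had 49.4 FPKM. Their promoters are shown because, among the 35 genes of the group that matched a RefSeq promoter (GRCm38.p6), these were the ones holding the ER stress response element, a motif bound by factors of the unfolded protein response. Its first form is CCAAT, 9 bases, then CCACG, searched on both strands in windows from 250 bases before to 50 bases after each start. It was present in 39 of 32851 windows (0.119%). Both promoters are printed 5′ to 3′ on the strand of the gene, with the 250 bases before the start and the ends of the motif in capitals.
*Calr*, chr8:84846932-84847181, minus strand: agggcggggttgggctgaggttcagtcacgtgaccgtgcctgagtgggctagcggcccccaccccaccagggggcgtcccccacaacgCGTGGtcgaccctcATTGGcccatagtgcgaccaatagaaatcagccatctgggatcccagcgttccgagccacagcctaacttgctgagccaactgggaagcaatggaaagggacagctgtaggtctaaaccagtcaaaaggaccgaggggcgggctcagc
*Canx*, chr11:50325674-50325923, minus strand: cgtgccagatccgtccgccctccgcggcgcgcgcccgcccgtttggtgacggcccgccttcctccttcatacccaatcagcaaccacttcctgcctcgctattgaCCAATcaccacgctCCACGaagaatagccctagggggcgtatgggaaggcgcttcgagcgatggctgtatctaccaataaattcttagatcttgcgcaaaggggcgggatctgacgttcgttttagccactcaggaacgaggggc

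In *Calr* the motif lies on the opposite strand, 162 to 144 bases before the start, and reads there as its reverse complement. In *Canx* it lies on the strand of the gene, 145 to 127 bases before the start. The second form of the element (ATTGG, 1 base, then CCACG) was in 12 windows (0.0365%) and in 0 promoters of the group. The core CCACG alone was in 20 of the 35 matched genes, beside 35.5% of all genes with a window, and overlaps the first form in the 2 promoters above. A match is a string of letters and says nothing of which factor binds.

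Both chaperone genes are given here in every liver, and the part of the motif in their values was not tested. *Calr* measured 1067, 970 and 1428 CPM in WT livers 1 to 3 and 1557, 1686 and 1532 CPM in *Asgr1*-/- livers 1 to 3. The genotypes did not overlap, with WT liver 3 nearest to the *Asgr1*-/- livers. Its log2 fold change was 0.46 (SE 0.15, 95% interval 0.12 to 0.81, edgeR adjusted p = 0.203), and leaving out WT liver 3 gave 0.64 (adjusted p = 0.0301), against 0.48 with no filter on low values (adjusted p = 0.0486).

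*Canx* measured 186, 257 and 266 CPM in WT livers 1 to 3 and 263, 232 and 201 CPM in *Asgr1*-/- livers 1 to 3. WT liver 1 was the lowest and the genotypes overlapped, with a log2 fold change of -0.03 (95% interval -0.38 to 0.33). The FPKM of *Calr* over that of *Canx* was 9.33, 6.15 and 8.74 in WT livers 1 to 3 and 9.65, 11.8 and 12.4 in *Asgr1*-/- livers 1 to 3, a ratio also chosen after the values were seen.

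**Figure D3:**
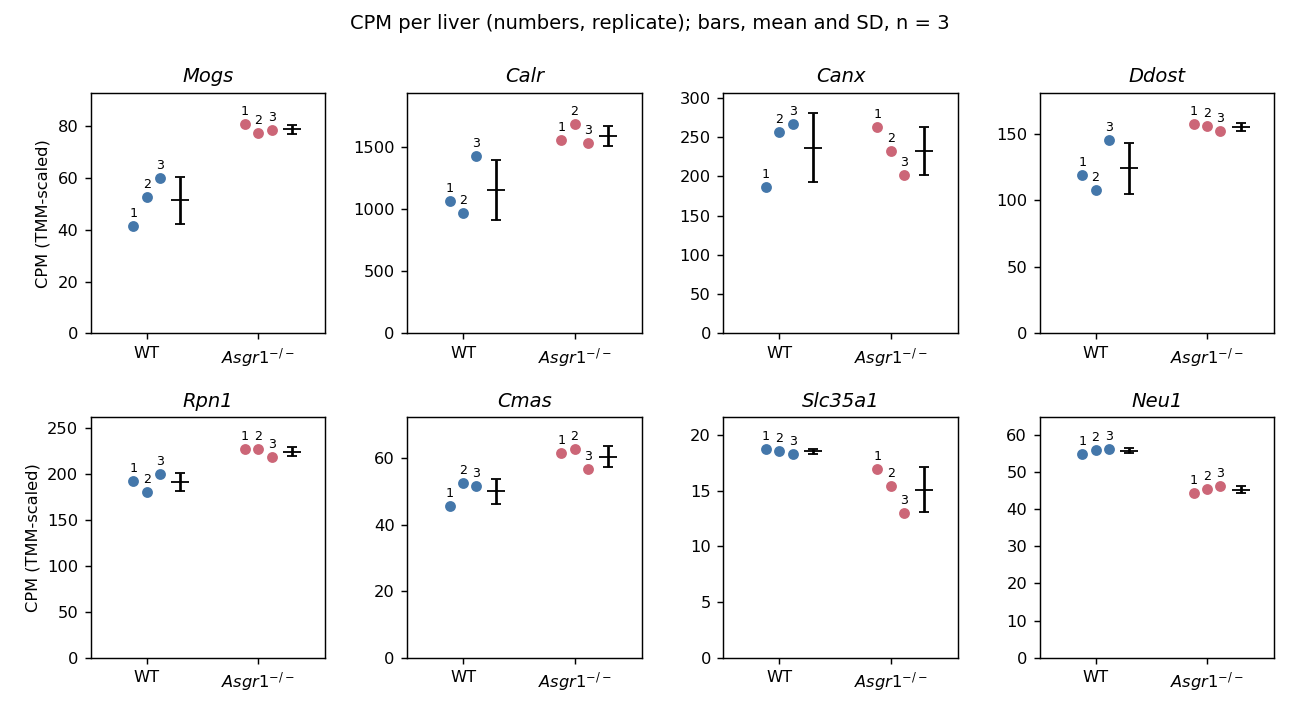
CPM of 8 genes in each liver of 3 WT (blue) and 3 *Asgr1*-/- (red) mice, with the replicate number at each point and the mean and SD (bars, n = 3) beside them. Each axis starts at 0, and the genotypes overlap for *Canx* but not for the 7 other genes.

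Mannose trimming in the ER and early Golgi exposes the core on which branches are built. Its 5 genes had log2 fold changes from -0.33 to -0.00 with a median of -0.26, and 0 of 5 were above 0. The genotypes overlapped in each of them. The highest level was that of *Man2a1*, Golgi mannosidase II (mean 17.2 FPKM), with 110, 173 and 127 CPM in WT livers 1 to 3 and 131, 121 and 91.5 CPM in *Asgr1*-/- livers 1 to 3. WT liver 2 stood above the 5 others, and the log2 fold change was -0.26 (SE 0.19, edgeR adjusted p = 0.544).

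The smallest p of the step was that of *Man1a*, a Golgi mannosidase of the first trimming round, with 146, 185 and 162 CPM in WT livers 1 to 3 and 135, 149 and 124 CPM in *Asgr1*-/- livers 1 to 3. WT liver 1 lay within the *Asgr1*-/- range, and the log2 fold change was -0.27 (SE 0.12, edgeR adjusted p = 0.336). Its relative *Man1a2* had the lowest log2 fold change of the 36 genes, -0.33 with a 95% interval of -0.71 to 0.04, at a low level of 2.17 FPKM. *Man1b1*, which trims mannose on proteins bound for disposal, had -0.22. *Man2a2*, the second Golgi mannosidase II gene, had -0.00, and its sign turned in 12 of the 14 alternatives, to at most 0.06.

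Branching starts with *Mgat1*, whose enzyme adds the N-acetylglucosamine that commits the chain to the hybrid and complex types. Of its 3 tested genes, 2 were above 0, with a median log2 fold change of 0.06. *Mgat1* had the highest level of the step (mean 21.5 FPKM) and its smallest p. It measured 100, 112 and 124 CPM in WT livers 1 to 3 and 97.6, 91.9 and 93.9 CPM in *Asgr1*-/- livers 1 to 3. Each *Asgr1*-/- liver was below each WT liver, though *Asgr1*-/- liver 1 was close to WT liver 1. The log2 fold change was -0.24 (SE 0.11, 95% interval -0.49 to 0.00, edgeR adjusted p = 0.331).

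*Mgat2*, which starts the second antenna, had a log2 fold change of 0.28 with a 95% interval of -0.17 to 0.73, and *Mgat4b*, which adds a further branch, had 0.06 with an interval of -0.18 to 0.30. The other branching genes were low. *Mgat5* had a mean of 0.682 FPKM, *Fut8*, the core fucosyltransferase, 0.202 FPKM, and *Mgat4a* 0.127 FPKM. These levels were under the filter. *Fut8* had 21, 37 and 55 counts in WT livers 1 to 3 and 31, 26 and 25 in *Asgr1*-/- livers 1 to 3. The order of its WT livers is also that of the Kupffer cell, endothelial and stellate cell marker sums. The part of those cells in it was not tested. In the fit with no filter on low values, *Mgat4a*, *Mgat5* and *Fut8* had log2 fold changes of 0.17, -0.11 and -0.52 with standard errors of 0.40, 0.22 and 0.40.

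Galactose is added by the B4galt enzymes from UDP-galactose that *Slc35a2* brings into the Golgi. The 4 genes had log2 fold changes from -0.28 to -0.09 with a median of -0.16, and 0 of 4 were above 0. *B4galt1* had the highest level (mean 9.92 FPKM) and measured 42.3, 59.7 and 31.8 CPM in WT livers 1 to 3 and 39.4, 38.8 and 43.6 CPM in *Asgr1*-/- livers 1 to 3. The WT livers held both the highest and the lowest value. Its log2 fold change was -0.14 with a wide 95% interval of -0.59 to 0.32, and it was 0.13 without WT liver 2.

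*B4galt3* had the smallest p of the step and measured 11.0, 12.7 and 11.0 CPM in WT livers 1 to 3 and 9.54, 8.77 and 10.2 CPM in *Asgr1*-/- livers 1 to 3. The genotypes did not overlap, and the log2 fold change was -0.28 (SE 0.15, edgeR adjusted p = 0.394). Of its exon bases, 14.5% are shared with exons of *Ppox* on the opposite strand, and since the counting strand is not given in the sources used here, reads there cannot be assigned to one of them. *B4galt5* and *Slc35a2* overlapped between genotypes, with log2 fold changes of -0.18 and -0.09.

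**Figure D4:**
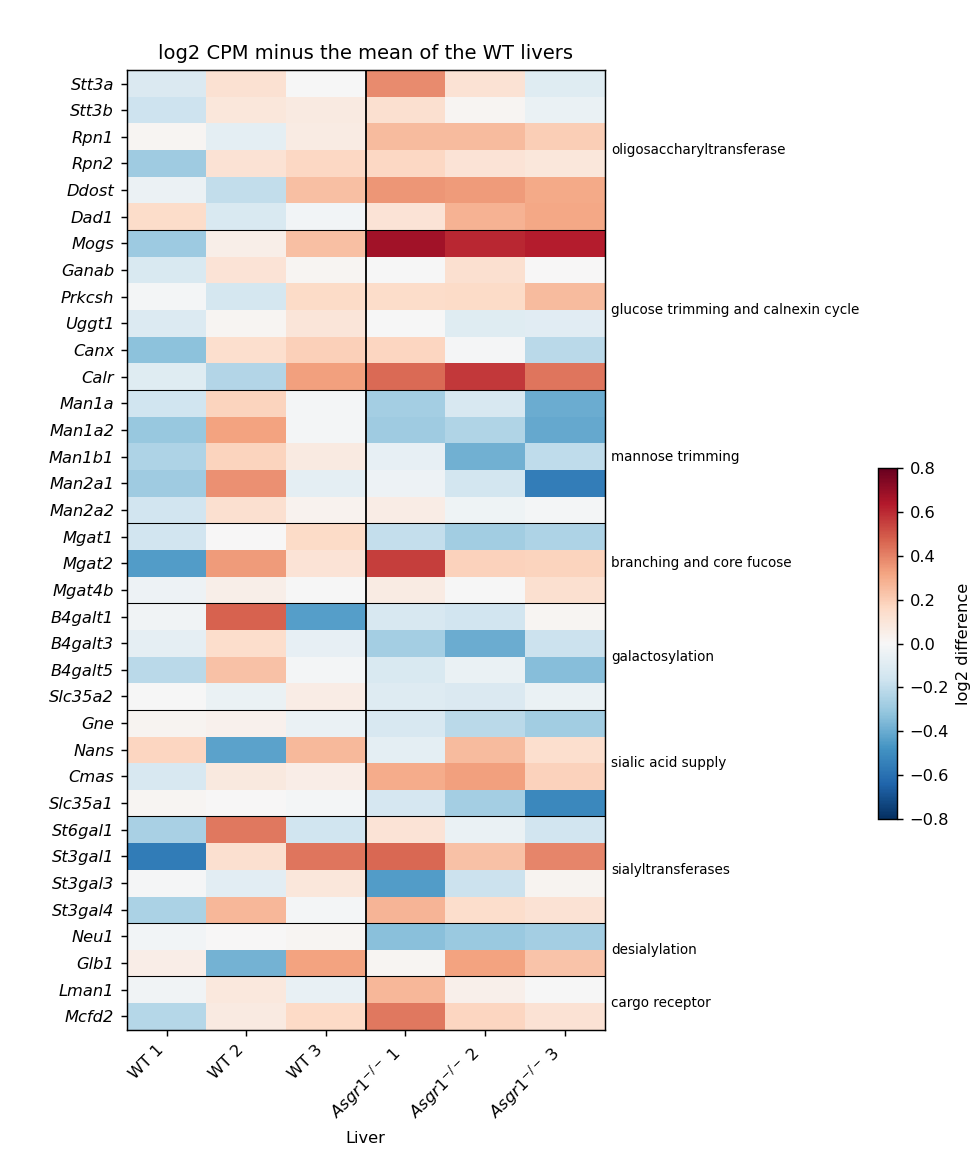
Log2 CPM of the 36 tested genes in each of the 6 livers, minus the mean of the WT livers, as colour from -0.8 (blue) to 0.8 (red), with genes in rows by step and livers in columns. Values run from -0.56 to 0.67, and the row of *Mogs* is the darkest red in the *Asgr1*-/- livers.

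Sialic acid is made in the cytosol by *Gne*, whose enzyme catalyses the rate-limiting step, and *Nans*, activated by *Cmas*, and carried into the Golgi by *Slc35a1*. Of these 4 genes, 2 had a log2 fold change above 0 and 2 below, with a median of -0.06. *Gne* had the highest level (mean 34.2 FPKM) and measured 239, 242 and 227 CPM in WT livers 1 to 3 and 216, 204 and 195 CPM in *Asgr1*-/- livers 1 to 3. The genotypes did not overlap, and the means of 236 ± 7.89 and 205 ± 10.7 CPM (SD, n = 3 each) gave a log2 fold change of -0.21 (SE 0.10, edgeR adjusted p = 0.356).

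*Cmas*, which makes CMP-sialic acid, the donor of the sialyltransferases, went the other way. It measured 45.8, 52.7 and 51.8 CPM in WT livers 1 to 3 and 61.5, 62.9 and 56.8 CPM in *Asgr1*-/- livers 1 to 3. Again the genotypes did not overlap, and the log2 fold change was 0.27 (SE 0.11, 95% interval 0.03 to 0.51, edgeR adjusted p = 0.274). The FPKM of *Cmas* over that of *Gne*, a ratio chosen after the values were seen, was 0.258, 0.294 and 0.307 in WT livers 1 to 3 and 0.384, 0.416 and 0.394 in *Asgr1*-/- livers 1 to 3.

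The CMP-sialic acid carrier *Slc35a1* measured 18.8, 18.6 and 18.3 CPM in WT livers 1 to 3 and 16.9, 15.4 and 13.0 CPM in *Asgr1*-/- livers 1 to 3. The WT livers were nearly equal and each *Asgr1*-/- liver was lower, with a log2 fold change of -0.30 (SE 0.13, edgeR adjusted p = 0.331). *Nans* overlapped, with a log2 fold change of 0.08 and a 95% interval of -0.34 to 0.50. It shares 29.6% of its exon bases with *Trim14* on the opposite strand.

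Sialyltransferases place the cap, and 4 of their 5 genes were tested, with 2 above 0 and a median log2 fold change of 0.05. By FPKM, which divides by length, the order of the means was *St3gal3* at 37.6, *St3gal4* at 24.5, *St3gal1* at 10.8, *St6gal1* at 5.82 and *St3gal6* at 0.203. *St3gal3* and *St3gal4* did not overlap over the 6 livers (30.4 to 42.5 and 18.7 to 28.5 FPKM), nor did *St3gal4* and *St3gal1*, whose highest liver had 13.2 FPKM. *St3gal1* and *St6gal1* did overlap, since WT liver 1 had 6.15 FPKM for the former and WT liver 2 had 7.55 FPKM for the latter. The order of *St3gal4* and *St3gal1* rests on annotated exonic sizes of 2923 and 6851 bases, since their means in CPM were 68.2 and 66.8 in WT and 76.3 and 82.7 in *Asgr1*-/- livers. *St6gal1* is known in liver as the enzyme that sialylates many secreted plasma proteins, while *St3gal1* acts mainly on O-glycans.

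*St3gal3* measured 112, 106 and 120 CPM in WT livers 1 to 3 and 82.3, 99.5 and 114 CPM in *Asgr1*-/- livers 1 to 3. The genotypes overlapped, with *Asgr1*-/- liver 1 the lowest, and the log2 fold change was -0.19 (SE 0.13, edgeR adjusted p = 0.524). It made up 51.1% ± 5.62 (SD, n = 3) of the summed sialyltransferase FPKM in WT and 44.5% ± 5.34 (SD, n = 3) in *Asgr1*-/- livers, a difference smaller than the range within either genotype (exact permutation test, p = 0.3).

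*St3gal1* had the smallest p of the step and measured 43.7, 70.1 and 86.6 CPM in WT livers 1 to 3 and 88.3, 75.6 and 84.1 CPM in *Asgr1*-/- livers 1 to 3. WT liver 1 was the lowest by far and WT liver 3 lay within the *Asgr1*-/- range, with a log2 fold change of 0.31 (SE 0.21, edgeR adjusted p = 0.522). The order of its WT livers was that of the Kupffer cell, endothelial and stellate cell marker sums, as for *Mogs* and other genes. Its *Asgr1*-/- livers were all above WT liver 2. The part of those cells was not tested.

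*St6gal1* measured 24.1, 38.6 and 25.8 CPM in WT livers 1 to 3 and 31.1, 27.9 and 26.0 CPM in *Asgr1*-/- livers 1 to 3. WT liver 2 was the highest and the genotypes overlapped. The log2 fold change was -0.06 with a 95% interval of -0.47 to 0.35, and it was 0.18 without WT liver 2. *St3gal4* had 0.16 (95% interval -0.15 to 0.47), also with overlap, and 14.1% of its exon bases are shared with a gene on the opposite strand.

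*St3gal6* was below the filter, with 23, 27 and 46 counts in WT livers 1 to 3 and 22, 17 and 19 counts in *Asgr1*-/- livers 1 to 3. WT liver 3 stood above the 5 others. Its log2 fold change was -0.78 (SE 0.43, edgeR adjusted p = 0.543) in the fit with no filter on low values, and 26.0% of its exon bases are shared with *Dcbld2* on the opposite strand, whose WT mean was 1.82 CPM and whose *Asgr1*-/- mean was 1.04 CPM.

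Removal of sialic acid in the lysosome is the work of the sialidase encoded by *Neu1* (chr17:34931253-34935953). *Neu1* measured 54.9, 55.9 and 56.2 CPM in WT livers 1 to 3 and 44.2, 45.3 and 46.1 CPM in *Asgr1*-/- livers 1 to 3. The highest liver exceeded the lowest 1.02-fold in WT and 1.04-fold in *Asgr1*-/- mice, and the genotypes did not overlap. The means were 55.7 ± 0.69 and 45.2 ± 0.96 CPM (SD, n = 3 each), 18.8% lower in *Asgr1*-/- livers. The log2 fold change was -0.30 (SE 0.10, 95% interval -0.52 to -0.08, edgeR adjusted p = 0.190), and over the 14 alternatives it lay between -0.31 and -0.23 and did not pass in any. The exact permutation test gave p = 0.1, its smallest value.

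*Glb1*, the lysosomal beta-galactosidase that acts after the sialidase, overlapped between genotypes with a log2 fold change of 0.17 and a 95% interval of -0.27 to 0.60. *Neu3*, the plasma membrane sialidase, was below the filter at 0.280 FPKM, with 13 to 26 counts in WT and 13 to 31 counts in *Asgr1*-/- livers. The summed FPKM of the 5 sialyltransferases over that of *Neu1* was 4.84, 5.63 and 5.60 in WT livers 1 to 3 and 6.49, 6.45 and 6.79 in *Asgr1*-/- livers 1 to 3, a ratio chosen after the values were seen. The summed sialyltransferase FPKM alone was 77.6 ± 7.73 in WT and 80.2 ± 2.84 in *Asgr1*-/- livers (SD, n = 3 each).

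Last, *Mcfd2* and *Lman1* encode the cargo receptor that carries glycosylated clotting factors V and VIII out of the ER. *Mcfd2* had the higher level (mean 107 FPKM) and measured 237, 292 and 310 CPM in WT livers 1 to 3 and 371, 313 and 300.4 CPM in *Asgr1*-/- livers 1 to 3. *Asgr1*-/- liver 1 was the highest, while *Asgr1*-/- liver 3 lay below WT liver 3. The log2 fold change was 0.23 (SE 0.14, edgeR adjusted p = 0.447), and that of *Lman1* was 0.11 (95% interval -0.15 to 0.36).

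Other genes of the pathway were looked at in 8 further lists, with 101 genes in the table and 75 tested. Of these, edgeR called 0, beside 0.295% of all genes tested, and limma on log2(FPKM + 0.1) called 0. DESeq2 called 1 (*Pgm3*), beside 2.44% of all genes. An unadjusted p under 0.05 was found for 17 (22.7%), beside 15.5% of all genes. Of those, 14 were higher in *Asgr1*-/- livers (18.7% of the 75, beside 7.29% of all genes) and 3 lower (4.0%, beside 8.2%). A log2 fold change above 0 was found for 49 (65.3%), beside 46.7% of all genes, with a median of 0.11 beside -0.02. The smallest p was that of *Pgm3*, which makes a precursor of UDP-N-acetylglucosamine. It measured 14.3, 13.1 and 16.1 CPM in WT livers 1 to 3 and 23.4, 21.8 and 23.0 CPM in *Asgr1*-/- livers 1 to 3. The genotypes did not overlap, and the log2 fold change was 0.65 (SE 0.13, edgeR adjusted p = 0.0648).

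In the assembly of the lipid-linked chain, 8 of 11 tested genes had a log2 fold change above 0, and the smallest p was that of the mannosyltransferase gene *Alg3* (log2 fold change 0.42, edgeR adjusted p = 0.184). Among the other oligosaccharyltransferase subunits it was 5 of 6, with the smallest p for *Ost4* (log2 fold change 0.33, adjusted p = 0.183). In both lists the direction was that of the ER genes above, in the same livers and without a called gene. The mostly negative direction of the later steps was not seen in the list of other Golgi genes. There 4 of 8 tested genes were above 0, with a median log2 fold change of 0.06. Among the other sialic acid genes it was 3 of 8, with a median of -0.08. In ER folding and disposal the smallest p was that of *Manea*, which encodes a Golgi endomannosidase (-0.57, adjusted p = 0.250), and among the other Golgi genes that of *Gmds*, whose enzyme starts the synthesis of GDP-fucose (1.18, adjusted p = 0.230). *Gmds* was low, with 1.08, 1.52 and 3.89 CPM in WT livers 1 to 3 and 4.52, 5.71 and 4.50 CPM in *Asgr1*-/- livers 1 to 3. The cholangiocyte marker *Epcam*, with 0.874, 2.46 and 6.26 CPM in WT livers 1 to 3 and 6.61, 8.87 and 8.22 CPM in *Asgr1*-/- livers 1 to 3, had the same order of livers in WT, and the part of those cells in *Gmds* was not tested.

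*Slc17a5*, the carrier that lets free sialic acid out of the lysosome, had the smallest p of the other sialic acid genes (-0.46, SE 0.14, edgeR adjusted p = 0.167). It measured 23.5, 25.8 and 20.7 CPM in WT livers 1 to 3 and 16.1, 18.9 and 15.8 CPM in *Asgr1*-/- livers 1 to 3, so that it was lower in each *Asgr1*-/- liver, as *Neu1* was. Among genes of lysosomal glycan breakdown, 5 of 9 were above 0, and among the other cargo receptors the smallest p was that of *Surf4* (0.27, adjusted p = 0.237).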

How the data were processed

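The deposited table gave raw counts per gene, FPKM computed by the authors from those counts, and the deposited exonic size of each gene (other values, in bases) on build GRCm38. The submitters' processing notes name DESeq2 1.6.3. Neither the aligner nor the counting tool or strand is given in the sources used. The 10167 genes whose FPKM averaged 1 or more were tested on counts with edgeR 4.0.16 (R 4.3.3, quasi-likelihood test, TMM, two-sided) with Benjamini-Hochberg adjustment over them, with calls made where the adjusted p was below 0.05 and the fold change over 1.5. The test was run on simulated counts with known fold changes, as a check of signs and false calls. Its power to detect a 1.5-fold change is not reported here. Members and gene lists were chosen with earlier results of these data known. Genes below the filter were given by counts. Values in every liver were given for those of the 41 genes with an unadjusted p under 0.05 and, in each step, for the gene of highest mean FPKM and that of smallest p. *Canx*, *Slc35a1*, *St6gal1*, *Fut8* and *St3gal6* and, of the further lists, *Pgm3*, *Gmds* and *Slc17a5* were added after their values were seen, as were the ratios.

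Alternatives were median-of-ratios size factors, library totals, no filter or one at 0.1 FPKM, DESeq2 1.42.0, limma 3.58.1 on log2(FPKM + 0.1) or log2(FPKM + 1), a block for the replicate number and leaving out each liver. Deviations of same-numbered livers from their group means correlated at -0.17, 0.03 and -0.03, and no pairing by number was assumed. Between replicates, the chi-square divided by its degrees of freedom was 19.3 to 54.0, so no library repeated another. Exon overlaps were taken from the GENCODE M21 annotation, and promoters from RefSeq on GRCm38.p6, in which 35 of the 41 genes matched. Python 3.11.15, pandas 2.3.3 and matplotlib 3.10.9 were used for tables and figures. Values of some genes of the lists are not reported here.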

Additional observations from a re-analysis of the deposited data

How the results depend on the processing

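The number of genes called among the 36 was 0 with edgeR, TMM and the FPKM filter, beside 30 of all 10167 genes tested (0.295%). It was 1 (*Mogs*) with no filter on low values, beside 465 over all genes in that fit. It was 1 (*Mogs*) with DESeq2, beside 248 of all genes (2.44%). It was 0 to 2 when each liver was left out, beside 3 to 288 of all genes, with *Calr* and *Mogs* called without WT liver 3. With a replicate block it was 0 and the median log2 fold change of the 36 genes was 0.04. Same-numbered livers did not deviate together, so this block has no basis in the labels. The median of the sialic acid supply genes was -0.010 with library totals only, and 0.0014 and -0.011 with limma on log2(FPKM + 0.1) and log2(FPKM + 1). Leaving out each liver gave medians of -0.15 to -0.013 for these genes, -0.070 to 0.24 for the sialyltransferases and -0.26 to -0.087 for galactosylation, where the highest or lowest value came without WT liver 1, 2 or 3. Signs turned for genes near 0. *Man2a2* was 0.00020 with median-of-ratios size factors, 0.052 with library totals only, 0.0078 with no filter, 0.020 at a mean FPKM of at least 0.1, 0.00021 with DESeq2, 0.052 and 0.036 with limma, and 0.0017 with the replicate block. *Canx* was 0.028 with library totals only and 0.038 and 0.037 with limma, and *St6gal1* 0.024 and 0.018 with limma. Leaving out each liver gave -0.076 to 0.063 for *Man2a2*, -0.17 to 0.073 for *Canx*, -0.19 to 0.18 for *St6gal1*, -0.050 to 0.076 for *Stt3b*, -0.018 to 0.19 for *Rpn2*, -0.019 to 0.096 for *Ganab*, -0.33 to 0.13 for *B4galt1*, -0.11 to 0.21 for *Nans* and -0.0032 to 0.34 for *Glb1*. In none of these fits did the gene pass, and the cause was not tested. Of the refits of single genes under the alternatives, 470 kept direction and side of the threshold, 29 turned sign and 5 had an adjusted p below 0.05, whatever the fold change. Over all genes tested, calls numbered 30 with edgeR, 465 with no filter, 248 with DESeq2, 23 with the replicate block, and 3 to 288 when a liver was left out. The 5 genes under the filter had at most 179 counts per liver.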
